A study of Mus musculus with 6 samples.

Results

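The genes described here are 36 solute carriers that move sugars, peptides, amino acids, ions, metals and vitamins across the membranes of gut epithelial cells. They were listed by name and grouped by what they carry, and each was read from its brightest probe set paired with that gene alone. Of the 36, 35 had such a probe set, out of 18193 genes measured in all. The probe set for Slc28a2, a nucleoside carrier, is paired with a second gene as well, so Slc28a2 was not analysed here.

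The absorptive cell of the gut has an apical membrane facing the lumen and a basolateral membrane facing the blood, and most nutrients need a carrier in each. The sodium pump keeps sodium low inside the cell, and many apical carriers use the inward pull of sodium or protons to bring their substrate in. Other carriers exchange one amino acid for another, let sugars through passively, or secrete chloride from the crypts.

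RNA came from intestinal epithelial cells of C57BL/6 mice on Affymetrix arrays. The 3 control mice carried floxed caspase-8 and no villin-Cre, and the 3 deleted mice carried floxed caspase-8 with villin-Cre. Villin drives Cre in the gut epithelium, in absorptive, secretory and crypt cells alike, and all 6 animals shared the floxed gene. How far the gene was lost in each kind of cell was not measured here. The labels give neither the age or sex of the mice nor the stretch of intestine taken. Each animal gave 1 array, and values are log2 expression from RMA (robust multi-array average), which has no true zero and pulls dim signals towards a floor.

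The arrays correlated at 0.979 to 0.995 with one another across all genes. Casp8 averaged 10.17 ± 0.40 in controls and 9.74 ± 0.58 in deleted arrays (SD, n = 3; −0.43, limma adjusted p = 0.518), and since the removed exons are not named in the labels its probe set cannot check the genotypes. The 8 genes that mark epithelium (such as Epcam and Cdh1) averaged 12.33 to 12.48 on every array. Of the 17 measured kidney markers and 12 endothelial markers, 0 passed the test. Their mean stood 1.76 and 2.26 above the control mean on deleted replicate 1, and between −0.19 and 0.15 of it on the other arrays. Levels of Slc12a1 and Umod, which define kidney tubule, were 7.77 and 7.87 on that array and 2.69 to 3.55 elsewhere. Several of the 35 carriers are also made by kidney tubule. On deleted replicate 1, 5 of the 35 (14.3%) were the highest of the 6 arrays, beside 19.1% of all genes. Slc23a1 and Slc46a1 were among the 5. There 0 of the 35 lay more than 1 log2 unit above every other array, beside 211 of all 18193 genes. So few of all genes did so that 0 of 35 says nothing about the carriers. The part of kidney RNA in the carriers' values was not tested. Control probe sets at both ends of Gapdh differed (3′ end minus 5′ end), a measure that grows with RNA degradation, by 0.68 and 0.93 in control replicates 1 and 2 and 0.21 to 0.29 on the other 4 arrays.

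The mean over the 35 carriers lay between −0.096 and 0.065 of the control mean on every array, deleted or not. Of the 35, 2 passed an adjusted p of 0.05 (limma, Benjamini-Hochberg over all 18193 genes), and both fell: Slc1a1 and Slc1a5, carriers of the same family for acidic and neutral amino acids. Those 2 are 5.71% of the carriers, where 0.775% of all genes passed, 0.467% lower and 0.308% higher. With an array left out in turn the count was 0 or 1 of 35. The share over all genes includes dim genes, while every carrier but Slc29a1 lay above the median level of all genes. Carriers and all genes therefore differ in brightness, and the gap between their shares cannot be read as a property of the carriers alone. With only genes above the median level tested, 298 genes passed, against 141 of all 18193, and 3 of them were carriers. The comparisons with all genes that follow have the same limit.

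Carriers whose 3 deleted arrays all lay on one side of the 3 control arrays were also counted. There were 13 such carriers, or 37.1%, beside 22.7% of all genes. In 8 of them (22.9%) the deleted arrays lay higher, beside 11.5% of all genes, and in 5 (14.3%) lower, beside 11.2%. The 8 were Slc7a7, Slc3a1, Slc22a5, Slc26a6, Slc31a1, Slc46a1, Slc19a3 and Slc23a1, and the 5 were Slc2a1, Slc1a1, Slc1a5, Slc16a1 and Slc12a2. Over the 35 carriers the median log2 difference was 0.13, against 0.022 over all genes. The median size of a difference without its sign was 0.27 against 0.16. The carriers also varied more within groups, with a median SD of 0.25 against 0.18. Among the 312 other measured genes whose symbols begin with Slc, 3 passed, 1 higher and 2 lower, and the median difference was 0.061. Groups were apart in 69 of these 312 (22.1%), 42 higher and 27 lower, a share close to that of all genes.

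**Figure D1:**
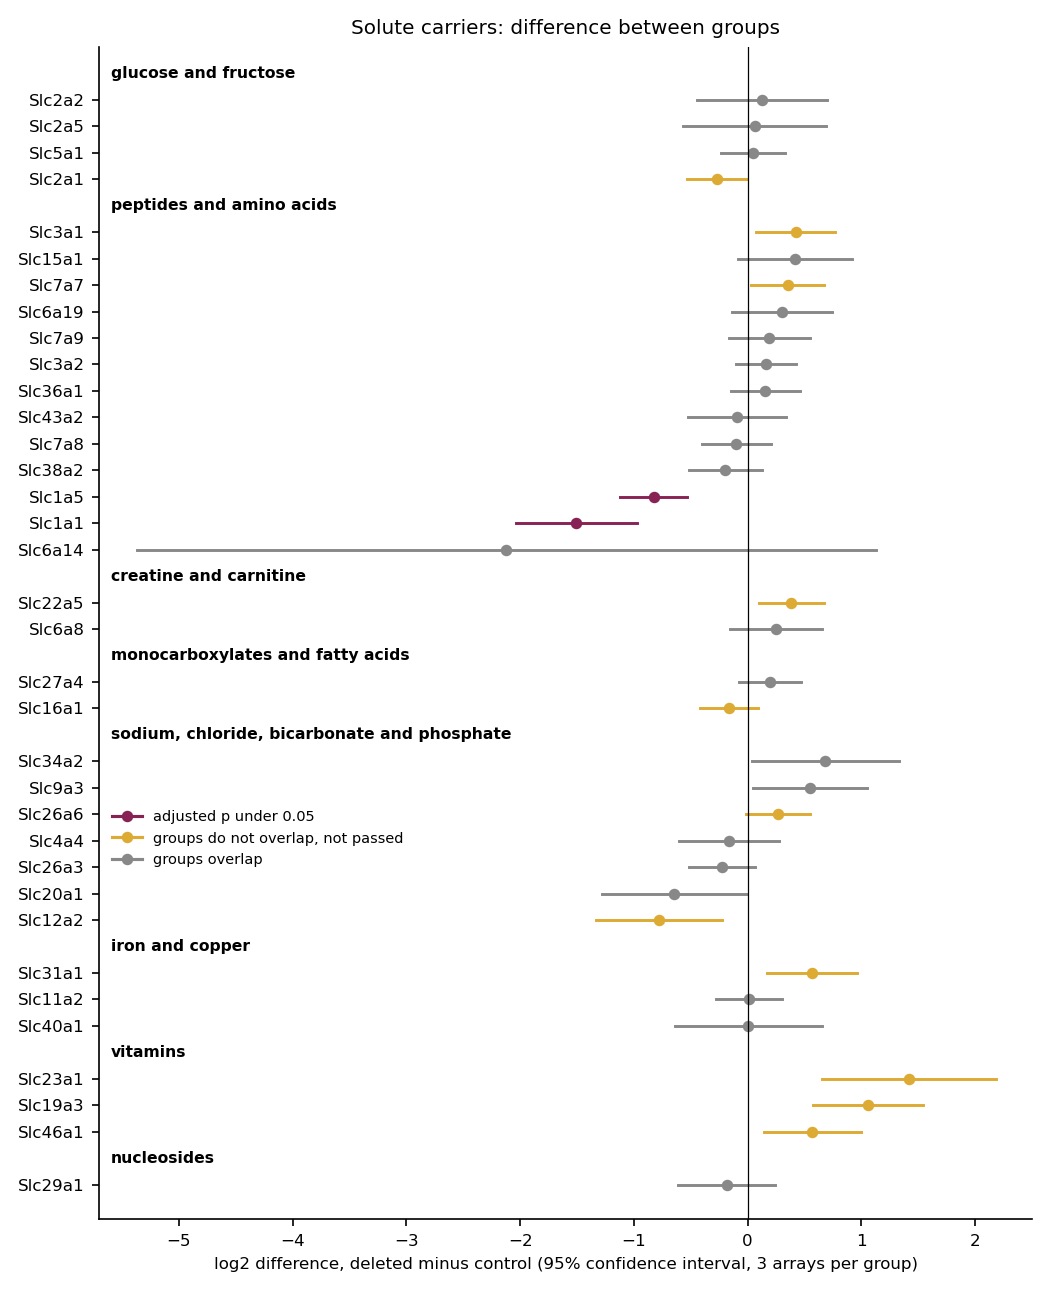
Log2 difference between deleted and control arrays (x axis; points, with bars for the 95% confidence interval, 3 arrays per group) for the 35 measured carriers, grouped by substrate. Slc1a1 and Slc1a5, at −1.51 and −0.83, passed the adjusted p of 0.05, the 11 in yellow did not pass but had groups that did not overlap, and the bar of Slc6a14 is the widest of all.

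The start regions of Slc1a1, the carrier with the larger fall, and of Slc19a3, the higher carrier nearest to the threshold, are shown as the 250 bases before the RefSeq transcription start on GRCm38.p6. The Slc1a1 region lies at chr19:28834885-28835134 on the plus strand, and that of Slc19a3 at chr1:83038449-83038698 on the minus strand. Capitals mark matches to any of 8 motifs searched on both strands.
Slc1a1: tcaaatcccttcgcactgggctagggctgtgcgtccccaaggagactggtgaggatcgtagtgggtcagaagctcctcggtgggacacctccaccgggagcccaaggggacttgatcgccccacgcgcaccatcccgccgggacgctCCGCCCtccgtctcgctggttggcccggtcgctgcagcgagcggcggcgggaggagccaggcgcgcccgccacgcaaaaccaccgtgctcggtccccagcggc
Slc19a3: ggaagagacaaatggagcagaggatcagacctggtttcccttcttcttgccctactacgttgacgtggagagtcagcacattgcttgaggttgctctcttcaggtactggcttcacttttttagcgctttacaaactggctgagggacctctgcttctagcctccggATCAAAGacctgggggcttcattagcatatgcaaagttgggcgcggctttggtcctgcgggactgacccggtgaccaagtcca

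The Slc1a1 stretch was 70.4% G and C and held 1 match, a GC box (GGGCGG, read on the opposite strand) at −103 to −98 from the start. The Slc19a3 stretch was 52.8% G and C and held 1 match to CTTTGAT, a TCF/LEF site of Wnt signalling, also on the opposite strand, at −83 to −77. Start regions of 30 of the 36 carriers were in the table, with 45 windows among them. The GC box was in 53.3% of those windows and in 32.7% of all 32851 windows in the table. CTTTGAT was in 2.22% and 3.21%, the E-box CACGTG in 13.3% and 6.02%, and the antioxidant response element TGACNNNGC in 11.1% and 10.2%. TGATGNAA (the ATF4 amino acid response element), TGANTCA (AP-1), GTTAAT (part of an HNF1 site) and TATAAA were in 4.44%, 4.44%, 6.67% and 4.44% of the carriers' windows. Over all windows these 4 were in 3.45%, 6.75%, 6.43% and 12.4%. None of the 8 motifs overlapped another in the sequences shown. Each match is a description of the letters in these windows.

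Of the 4 sugar carriers, 3 lay close to the controls. Slc5a1 encodes SGLT1, which brings glucose in with sodium at the apical membrane; Slc2a2 encodes GLUT2, the basolateral exit for sugars, and Slc2a5 encodes GLUT5, the apical fructose carrier. Their log2 differences were 0.04 (95% confidence interval −0.24 to 0.32), 0.13 (−0.44 to 0.69) and 0.06 (−0.57 to 0.69), and 0 of the 4 sugar carriers passed. The intervals for Slc2a2 and Slc2a5 therefore still hold changes of over 0.5 either way. Slc2a5 read 8.28, 7.95 and 8.48 in controls and 8.55, 7.66 and 8.68 in deleted arrays, so that deleted replicate 2 was the lowest of all 6. Slc2a2 ran from 10.22 to 10.95 in controls and from 10.37 to 11.17 in deleted arrays.

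Slc2a1 encodes GLUT1, the glucose carrier of many dividing cells. It read 8.45, 8.62 and 8.57 in controls and 8.17, 8.39 and 8.27 in deleted arrays. All 3 deleted values lay below all 3 controls, by a small margin. The log2 difference of −0.27 (SE 0.12) did not pass (limma, adjusted p = 0.297), and its other probe sets stood at −0.13 and −0.06. Of 13 other genes of sugar handling inside the cell, 0 passed. Pklr, the pyruvate kinase of liver and gut, and the glycerol-3-phosphate dehydrogenase Gpd1 had the smallest p of these, with log2 differences of 0.43 and 0.50 (limma adjusted p = 0.128 and 0.154).

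Carriers of peptides and amino acids held both of the changes that passed. Of 13, 2 fell, 0 rose and 11 did not pass. Slc1a1 encodes EAAT3, which takes up glutamate, aspartate and cysteine at the apical membrane. It read 9.81, 9.93 and 9.72 in controls and 8.62, 8.57 and 7.74 in deleted arrays, with deleted replicate 3 the lowest. The fall of 1.51 on the log2 scale (SE 0.23, 95% confidence interval −2.04 to −0.98, limma adjusted p = 0.0378) is 2.85-fold. Its other probe sets stood at −1.31 and −1.02, and all 3 passed when each probe set was tested by itself (adjusted p = 0.0458, 0.0349 and 0.0109, in the order given). The probe set at −1.02 read 7.32, 7.18 and 7.18 in controls and 6.20, 6.22 and 6.18 in deleted arrays, with little spread in either group.

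Slc1a5 encodes ASCT2, an exchanger of glutamine and other neutral amino acids that dividing cells rely on. Its values were 7.48, 7.67 and 7.39 in controls and 6.69, 6.81 and 6.55 in deleted arrays, without overlap. It fell by 0.83 (SE 0.13, 95% confidence interval −1.12 to −0.53, limma adjusted p = 0.0393), or 1.77-fold. A second and dimmer probe set, with a mean of 5.05, stood at −0.28, with groups that overlapped. The mean of both, −0.56, did not pass (limma adjusted p = 0.091). The call on Slc1a5 was lost without each of the 6 arrays in turn (adjusted p = 0.0518 to 0.161), and that on Slc1a1 without control replicate 1, 2 or 3 or deleted replicate 2 (0.0863 to 0.158). Both kept their direction without each array.

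In RNA from many cells pooled, as here, fewer cells of a type and less RNA per cell cannot be told apart. Markers of crypt and cycling cells stood lower in the deleted arrays beside these falls. Of 11 measured, 2 fell, Lgr5 by 1.62 and Sox9 by 0.87, and 0 rose. The mean level of the 11 ran from 8.73 to 9.02 in controls and from 8.10 to 8.43 in deleted arrays. Of 7 Paneth cell markers 6 fell, and of 9 goblet cell markers 4 fell, with mean levels of 12.04 to 12.43 and 11.63 to 11.76 in controls and 10.27 to 10.63 and 10.90 to 11.02 in deleted arrays. Of 10 enteroendocrine markers 1 fell, Gcg by 1.11, and 0 rose. Their mean level was 8.66 to 8.86 in controls and 8.34 to 8.45 in deleted arrays. Lgr5, which marks crypt stem cells, read 6.97 to 7.72 in controls and 5.14 to 6.05 in deleted arrays. The part of crypt and secretory cells in the falls of Slc1a1 and Slc1a5 was not tested.

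**Figure D2:**
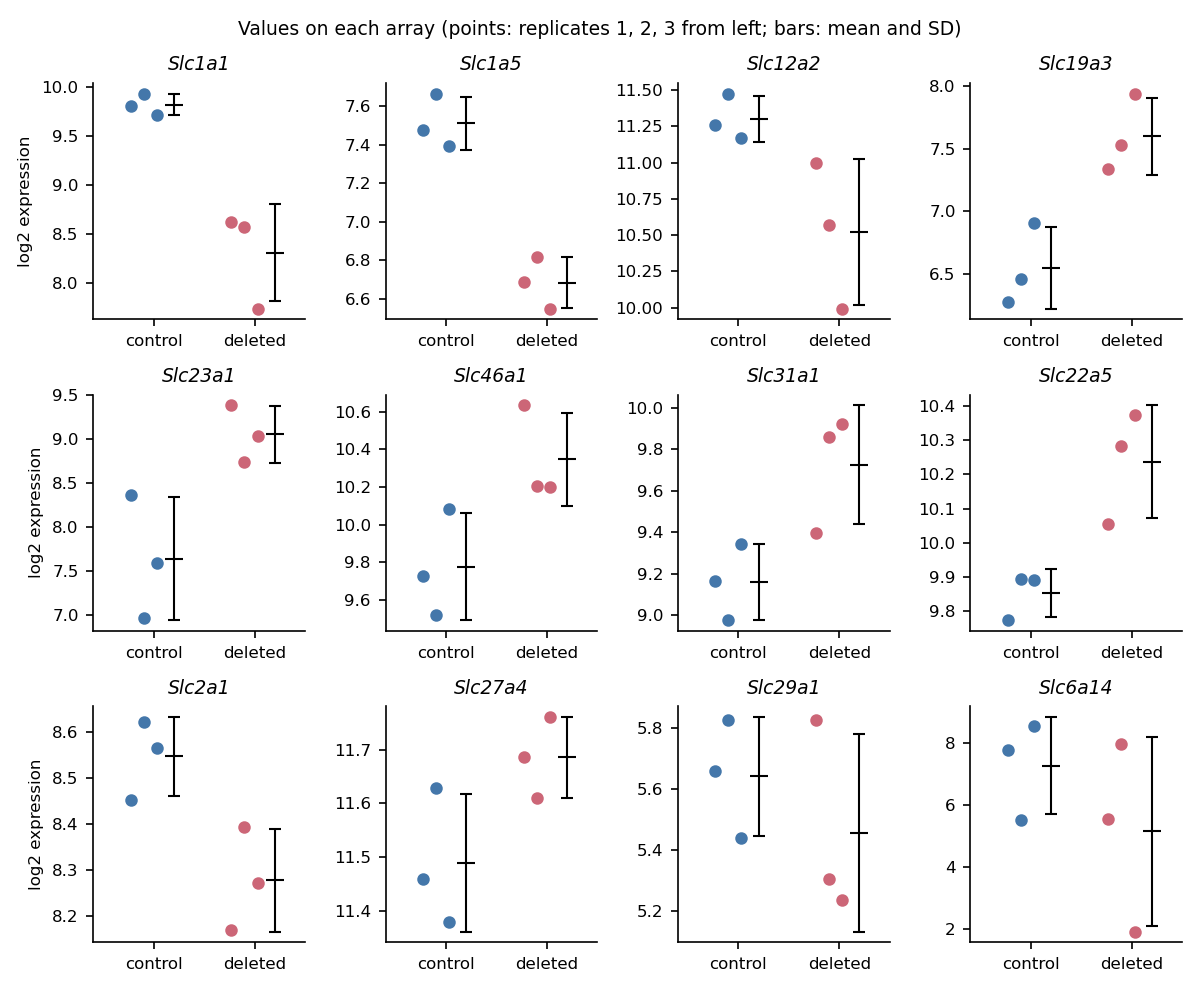
Log2 expression (y axis, its own range in each panel) of 12 carriers on the 3 control and 3 deleted arrays, with mean and SD. The control and deleted points are apart for Slc1a1, Slc1a5 and the vitamin carriers, while the Slc6a14 groups overlap in part, between 1.93 and 8.55.

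Slc15a1 encodes PEPT1, the proton-coupled peptide carrier, and Slc6a19 encodes B0AT1, the main apical sodium-coupled carrier of neutral amino acids, and neither passed. Slc15a1 read 10.55, 9.74 and 10.43 in controls and 10.47, 10.80 and 10.71 in deleted arrays, a difference of 0.42 (SE 0.22) that did not pass. Slc6a19 read 11.51, 10.91 and 11.61 against 11.69, 11.53 and 11.73, a difference of 0.30. In both, control replicate 2 was the lowest array by over 0.5, and the other controls overlapped the deleted arrays. Without it the differences were 0.17 and 0.087.

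Some amino acid exchangers work as pairs of a heavy chain of the Slc3 family and a light chain of the Slc7 family. At the apical membrane Slc3a1 (rBAT) pairs with Slc7a9, and both are altered in cystinuria. Slc3a1 read 11.07, 10.65 and 11.15 in controls and 11.42, 11.38 and 11.33 in deleted arrays, which lay above every control (0.42, SE 0.15, limma adjusted p = 0.225). Without control replicate 2, its lowest array, the difference was 0.27 (adjusted p = 0.366). Slc7a9 stood at 0.19 with overlapping groups, and at 0.057 without control replicate 2. At the basolateral membrane Slc3a2 (4F2hc) pairs with Slc7a7, the exit for cationic amino acids, or with Slc7a8, an exchanger of neutral ones. Slc7a7 read 9.97, 9.87 and 9.99 in controls and 10.15, 10.18 and 10.55 in deleted arrays, also apart (0.35, SE 0.14, adjusted p = 0.26), and 0.67 by its second probe set. Without deleted replicate 3 the difference was 0.22 (adjusted p = 0.472). Slc3a2 stood at 0.16 and Slc7a8 at −0.098. None of these chains passed.

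Of the remaining carriers in this class, Slc36a1 (a proton-coupled carrier of small amino acids) stood at 0.16. Slc38a2 (SNAT2, induced by amino acid shortage) stood at −0.20, and at −0.50 and −0.07 by its other probe sets. Slc43a2 (LAT4, a basolateral exit for branched amino acids) stood at −0.093. None had groups apart by the probe set used. Of 18 other genes of the amino acid response run by ATF4, 0 passed. Its stress regulator Atf3 stood at 0.64 and the translation inhibitor Eif4ebp1 at 0.41, and the 18 had a median of 0.029.

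Slc6a14 varied more than any other carrier. It encodes a broad amino acid carrier, ATB0,+, which is low in healthy small intestine and induced in inflamed gut. Controls read 7.78, 5.52 and 8.55 and deleted arrays 5.58, 7.98 and 1.93, so the lowest array was deleted replicate 3, the highest was control replicate 3, and the groups overlapped in between. The difference of −2.12 had an SE of 1.41 and a 95% confidence interval from −5.37 to 1.12. The second probe set put deleted replicate 3 lowest as well, at 6.36, 4.87 and 7.31 in controls and 4.99, 6.25 and 3.00 in deleted arrays (−1.43). The interval covers both signs. Without deleted replicate 3 the difference was −0.51, and without deleted replicate 2 it was −3.53.

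Creatine and carnitine carriers both stood higher without passing. Slc22a5 encodes OCTN2, which supplies carnitine for fatty acid oxidation. It read 9.77, 9.89 and 9.89 in controls and 10.06, 10.28 and 10.38 in deleted arrays, with no overlap (0.38, SE 0.12, limma adjusted p = 0.195). Its other probe set stood at 0.82, with groups also apart. The creatine carrier Slc6a8 stood at 0.25 with overlapping groups, at 0.40 by a second probe set, and at 0.092 without control replicate 2.

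Of the pair that carries monocarboxylates and fatty acids, 0 passed. Slc27a4 encodes FATP4, which takes part in fatty acid uptake, and read 11.46, 11.63 and 11.38 in controls and 11.69, 11.61 and 11.76 in deleted arrays. Control replicate 2 fell among the deleted arrays, and the difference was 0.20 (SE 0.12, adjusted p = 0.443, limma). Slc16a1 encodes MCT1, the carrier of lactate and butyrate, and its values of 10.77, 10.67 and 10.66 lay above those of the deleted arrays, 10.48, 10.64 and 10.48. The gap between the nearest arrays was small, and the difference was −0.17.

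Ion carriers lay on both sides of the controls, and 0 of 7 passed. Slc12a2 encodes NKCC1, which loads chloride into crypt cells for secretion through the channel CFTR. It read 11.26, 11.47 and 11.17 in controls and 11.00, 10.57 and 9.99 in deleted arrays. All deleted arrays were lower, replicate 3 most, and replicate 1 came near the lowest control. The difference was −0.78 (SE 0.24, 95% confidence interval −1.33 to −0.23, limma adjusted p = 0.18), and its other probe sets, at −0.83 and −0.84, also had groups apart. Without deleted replicate 1 the difference was −1.02 (adjusted p = 0.0627), and without deleted replicate 3 it was −0.52 (adjusted p = 0.345). The crypt and cycling markers were lower on the same arrays (mean deviations of −0.42, −0.40 and −0.73 on deleted replicates 1, 2 and 3). The part of the crypt cells in this difference was not tested.

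Of the apical sodium and anion exchangers, none passed. Slc9a3 encodes NHE3, which takes up sodium in exchange for protons, and read 9.66, 9.98 and 9.56 in controls and 9.82, 10.44 and 10.60 in deleted arrays. Only deleted replicate 1 fell among the controls, and the difference was 0.55 (SE 0.22, limma adjusted p = 0.262). It was 0.79 without that array (adjusted p = 0.0756) and 0.39 without deleted replicate 3 (adjusted p = 0.499). Slc26a6, an exchanger of chloride, bicarbonate and oxalate, read 10.99, 11.24 and 11.05 in controls and 11.28, 11.32 and 11.47 in deleted arrays (0.27). These groups were apart by a narrow margin. Slc26a3, the chloride and bicarbonate exchanger DRA, stood at −0.22, and its other probe sets stood at 0.06, −0.38 and −0.10. The sign for Slc26a3 thus depended on the probe set. The same held for Slc4a4, the basolateral sodium bicarbonate carrier NBCe1, at −0.17 by the probe set used and 0.02, 0.18, −0.09 and 0.01 by the others.

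The 2 kinds of phosphate carrier lay on opposite sides. Slc34a2 encodes NaPi-IIb, the apical phosphate carrier of the gut, and read 11.01, 12.10 and 11.19 in controls and 11.86, 12.37 and 12.12 in deleted arrays. Control replicate 2 stood about 1 log2 unit above the other controls and among the deleted arrays. The difference was 0.68 (SE 0.28, adjusted p = 0.275 by limma), 1.02 without control replicate 2 and 0.47 without control replicate 1. Slc20a1, a phosphate carrier found in most cells, read 8.67, 8.51 and 9.20 in controls and 8.74, 7.89 and 7.81 in deleted arrays (−0.65, SE 0.28, adjusted p = 0.293). Deleted replicate 1 overlapped the controls, and without it the difference was −0.94 (adjusted p = 0.0859), while without control replicate 3 it was −0.44 (adjusted p = 0.463). A second probe set stood at −0.57 with groups apart, and the remaining one at −0.0055.

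Of 23 partners, pumps and channels of these carriers, 0 passed. The chloride channel Cftr came nearest, from 9.56 ± 0.13 in controls to 8.89 ± 0.04 in deleted arrays (−0.67, SE 0.12, limma adjusted p = 0.0504), followed by the apical carbonic anhydrase Car4 at −0.75 (adjusted p = 0.0673). Both had deleted arrays below every control. The remaining 44 solute carriers of gut epithelium in a second list had 0 that passed and a median of −0.086. In 7 of the 44 the deleted arrays lay above every control, and in 6 below, beside 11.5% and 11.2% of all genes. The amino acid exchanger Slc7a5, a partner of Slc3a2, stood at −0.65 (adjusted p = 0.0584), and the sugar carrier family gene Slc5a4b at 1.05 (adjusted p = 0.0727).

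Iron carriers were close to level. Slc11a2 encodes DMT1, the apical iron carrier, and Slc40a1 encodes ferroportin, the only known cellular iron exporter. Slc11a2 ran from 6.83 to 7.07 in controls and from 6.85 to 7.12 in deleted arrays, with a difference of 0.0095 (95% confidence interval −0.28 to 0.30). Slc40a1 ran from 9.28 to 10.23 in controls and from 9.39 upwards in deleted arrays, with replicate 3 the highest of each group. Its difference was 0.0056, with a wider interval of −0.64 to 0.65. Of 21 other genes of iron, copper and folate handling 0 passed, with a median of 0.23. Hif1a, a regulator of the oxygen and iron response, and the ferroxidase Heph had the smallest p of these, with log2 differences of 0.46 and 0.49 (limma adjusted p = 0.188 and 0.246).

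The copper carrier Slc31a1 (CTR1) read 9.16, 8.98 and 9.34 in controls and 9.40, 9.86 and 9.92 in deleted arrays. The groups did not overlap, though deleted replicate 1 lay just above the highest control. The difference was 0.56 (SE 0.17, limma adjusted p = 0.177), 0.73 without that array (adjusted p = 0.0700) and 0.47 without deleted replicate 3 (adjusted p = 0.394). A second probe set stood at 0.046 with overlapping groups, so the probe sets for this gene disagree.

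All 3 vitamin carriers of the 35 stood higher in every deleted array than in any control, as 11.5% of all genes did, and none passed. In the second list, Slc19a1, Slc19a2 and Slc23a2 of the same families stood at −0.19, 0.28 and 0.079, with overlapping groups. The vitamin carriers Slc5a6 and Slc52a3 there stood at 0.55, with groups apart, and −0.0044, with overlapping groups. Slc23a1 encodes SVCT1, the sodium-coupled carrier of vitamin C, and had the highest difference of the 35. It read 8.36, 6.96 and 7.59 in controls and 9.38, 8.74 and 9.03 in deleted arrays. The controls were spread over more than 1 log2 unit, and the difference of 1.42 (SE 0.33, 95% confidence interval 0.65 to 2.18) had adjusted p = 0.104 by limma. Its second probe set stood at 1.35, with groups apart. Without deleted replicate 1, its highest array and the one with kidney and endothelial markers, the difference was 1.25 (adjusted p = 0.149), and with each array left out it ran from 1.08 to 1.78.

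Slc19a3 encodes a thiamine (vitamin B1) carrier. It read 6.27, 6.46 and 6.90 in controls and 7.34, 7.53 and 7.94 in deleted arrays, a difference of 1.06 (SE 0.21, 95% confidence interval 0.57 to 1.54, limma adjusted p = 0.0731), or 2.08-fold. The lowest deleted array lay above the highest control. Its second probe set, a dim one with a mean of 3.72, stood at 0.24 with overlapping groups. Without deleted replicate 1 the difference was 1.19 (adjusted p = 0.0533), and with each array left out it ran from 0.89 to 1.24.

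Slc46a1 encodes PCFT, the proton-coupled folate carrier of the upper small intestine. It read 9.73, 9.52 and 10.08 in controls and 10.63, 10.21 and 10.20 in deleted arrays. Deleted replicate 1 was the highest, and the difference was 0.57 (SE 0.18, adjusted p = 0.196 by limma). The second probe set stood at 0.55, with groups apart, and without deleted replicate 1 the difference was 0.42 (adjusted p = 0.288), against 0.72 without control replicate 3. The nucleoside carrier Slc29a1 (ENT1) read 5.66, 5.83 and 5.44 in controls and 5.83, 5.31 and 5.24 in deleted arrays, a difference of −0.19 (adjusted p = 0.655) that ran from −0.37 to −0.076 with each array left out. Deleted replicate 1 stood level with the highest control there.

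**Figure D3:**
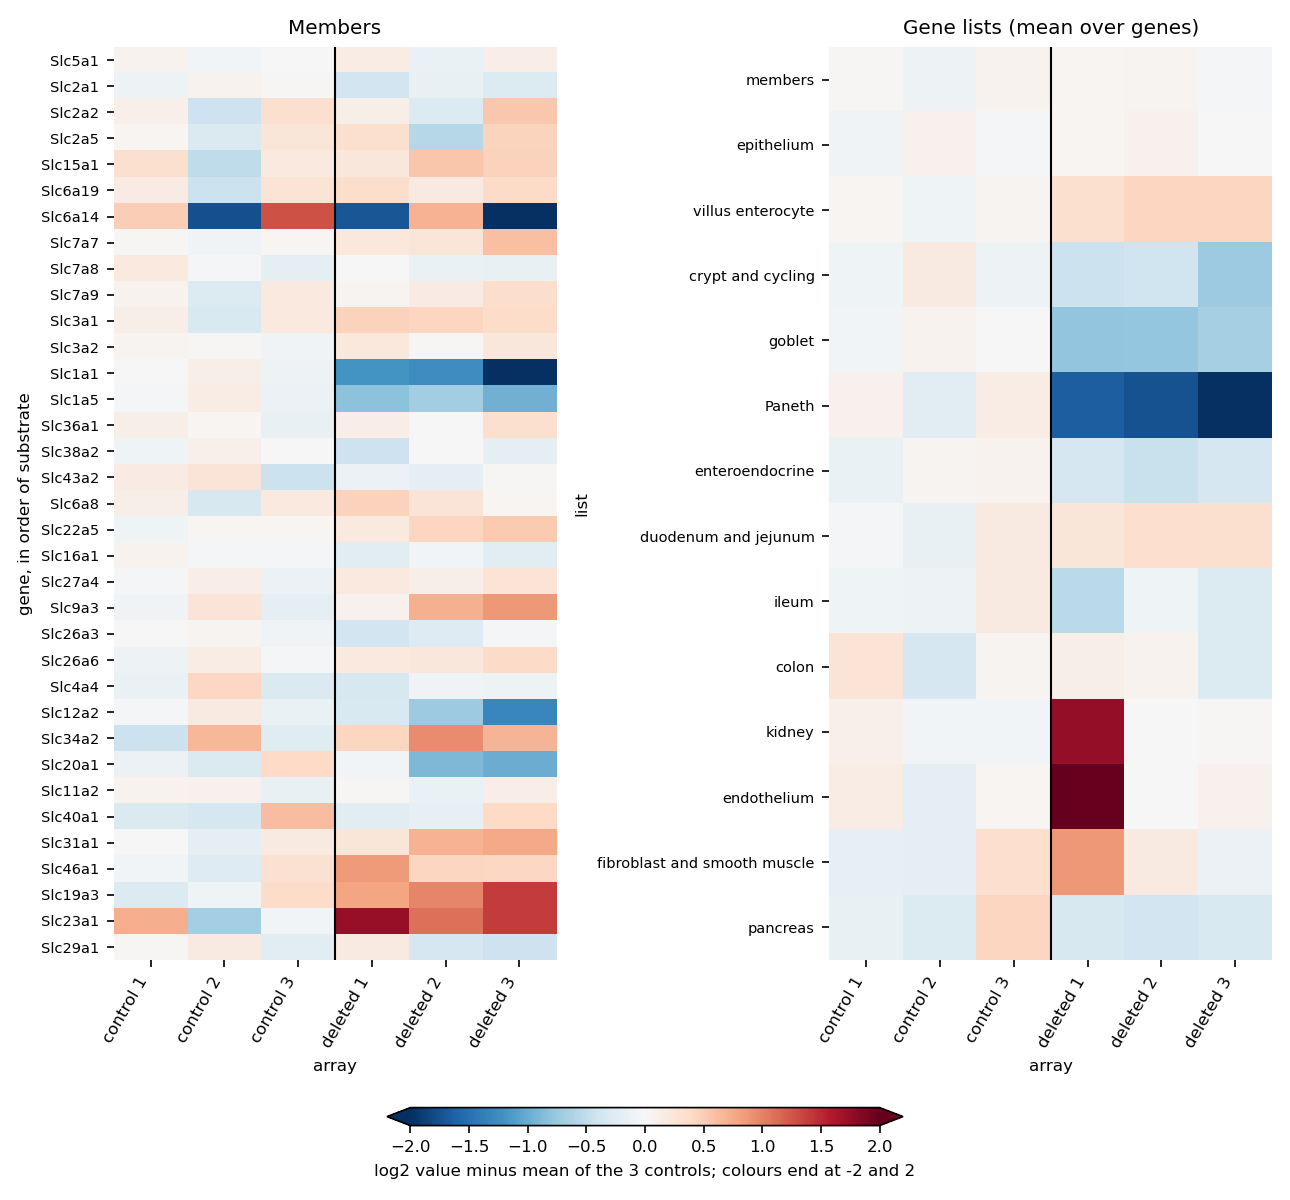
Log2 value of each array minus the mean of the 3 controls (colour, from −2 to 2), for the 35 carriers on the left and for the mean of the carriers and of 13 marker lists on the right. Slc1a1 and Slc1a5 and the crypt, goblet, Paneth, enteroendocrine and pancreas lists are lower on all 3 deleted arrays. The kidney and endothelium lists stand at 1.76 and 2.26 on deleted replicate 1.

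Markers of villus and of gut region were measured beside these higher carriers. Of 11 villus enterocyte markers, 1 rose, the retinol-binding protein Rbp2 by 0.97, and 0 fell. In 9 of the 11 the deleted arrays lay above every control, beside 11.5% of all genes, and in 0 below. The mean level of the list ran from 12.31 to 12.46 in controls and from 12.73 to 12.83 in deleted arrays. Of 12 markers of duodenum and jejunum 0 passed, with mean levels of 9.55 to 9.89 and 9.95 to 10.04. In 4 of these 12 the deleted arrays lay above every control, and in 0 below. Of 8 ileal markers 0 passed, with 10.66 to 10.93 and 10.22 to 10.67. In 2 of these 8 the deleted arrays lay below every control, beside 11.2% of all genes, and in 0 above. Of 12 colonic markers 1 rose, Ly6g6c, and the mean deviations overlapped, at −0.33 to 0.27 and −0.28 to 0.11. The part of cell position or gut region in the carriers' values was not tested.

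Control replicate 2 was the lowest of the 6 arrays for 11 of the 35 carriers and the highest for 9, where over all genes it was lowest in 26.4% and highest in 23.3%. Deleted replicate 3 was the highest for 14 carriers, or 40%, where over all genes it was highest in 19.9%. With the Gapdh difference as a covariate, Slc1a1 stood at −1.39 and Slc1a5 at −0.70, and neither passed (limma, adjusted p = 0.291 and 0.274). Against control replicate 3 alone they stood at −1.41 and −0.71. With 3 arrays per group, RNA quality and genotype cannot be told apart further.

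Of the 35 carriers, 23 had more than 1 probe set, with 36 further probe sets among them. Of these 36, 31 had the sign of the one used and 5 did not, and the 5 belonged to Slc26a3, Slc4a4 and Slc11a2, whose differences were small. More than 0.5 from the one used were 5: those of Slc6a14, Slc1a5, Slc20a1, Slc31a1 and Slc19a3. In all 5 the further probe set had the smaller difference. Over the 6 arrays these 5 averaged 5.46, 5.05, 2.69, 9.13 and 3.72, in the order given. Medians of the arrays were 4.85 to 4.91, so only that of Slc31a1 was bright. The 2 further probe sets that passed were those of Slc1a1.

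**Figure D4:**
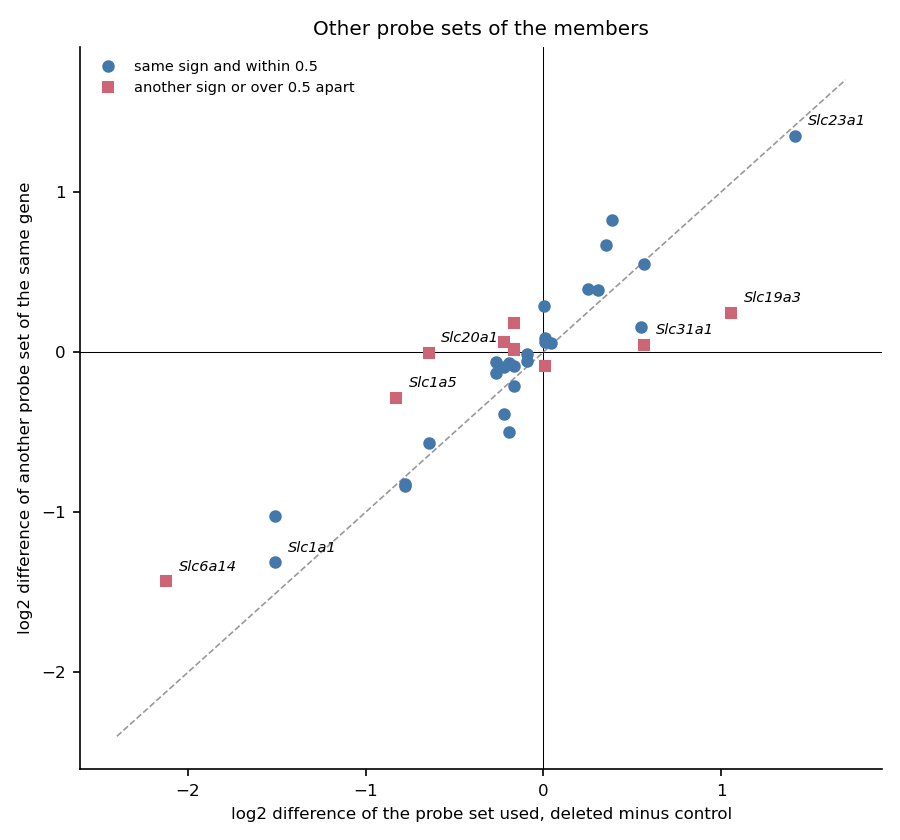
Log2 difference (deleted minus control) of the 36 further probe sets (y axis) against that of the probe set used for the same gene (x axis), with the line of equality dashed. The point of Slc23a1 lies near the line, those of Slc1a1 stand at −1.31 and −1.02 against −1.51, and those of Slc19a3, Slc31a1, Slc1a5 and Slc20a1 over 0.5 from the line lie nearer to 0 on the y axis.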

How the data were processed

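The authors deposited log2 expression values made with RMA, per the submitters' processing notes; its version, its options and any genome build were not given in the sources used here. Groups and replicate numbers came from the sample titles. Of 45101 probe sets, 34945 were paired with 1 gene by the platform annotation, 932 with several and 9160 with none; 64 were control probe sets. The brightest single-gene probe set (highest mean of 6 arrays) stood for each gene, without a filter on dim genes. Deleted minus control was fitted over all 18193 genes in R 4.3.3 by limma 3.58.1, using lmFit and eBayes with two-sided tests, and adjusted by Benjamini-Hochberg, with a threshold of 0.05. The fit was tested on simulated data. An exact permutation test of 3 against 3 arrays cannot go below 0.1. The p-values set the difference between groups against the spread between separate animals, with each gene's variance moderated over all genes.

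The carriers, lists and alternatives were chosen with earlier results of these data known. All 36 carriers were to be named, with values on each array for those that passed, those apart by at least 0.5 and the smallest p of each substrate class, and, of other lists, the genes that passed or else the 2 with the smallest p. Array values of the other carriers, among them Slc6a14, and the pair of start regions shown were chosen after values were seen. Start regions came from RefSeq. The alternatives were a replicate block, dim genes left out, probe set choice, another prior, array weights, centring, repeated quantile normalisation, RNA integrity and each array left out.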

Additional observations from a re-analysis of the deposited data

How the results depend on the processing

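The number of carriers that passed (2) was 1 with the mean over probe sets, 1 with each probe set tested, 8 with array weights, 3 among genes above the median level and 3 with a trend and robust prior (Slc19a3 added, limma adjusted p = 0.0343 and 0.0432), and 0 with the Gapdh covariate or without control replicates 1 and 2, where the lone control is assumed to vary like the others. It was 0 to 1 with each array left out. All genes that passed (141) were 298 among genes above the median level, 252 with a trend and robust prior, 1406 with array weights, 36 with the Gapdh covariate, 5 without control replicates 1 and 2, and 18 to 251 with each array left out. Genes of the other pathway lists that passed (0) were 6 above the median level, 2 with the mean over probe sets, 4 with the trend and robust prior, 16 with array weights, 1 with repeated quantile normalisation, and 0 to 1 with each array left out. Carriers with groups apart (13) were 25 without control replicates 1 and 2 and 15 to 20 with each array left out. Fewer arrays overlap less, in any gene. The share of all genes with groups apart is not given for these settings. These higher counts therefore cannot be read as stronger separation of the carriers. With array weights Slc22a5, Slc9a3, Slc12a2, Slc34a2, Slc31a1 and Slc19a3 also passed. The weights were 2.97 for control replicate 1, 2.36 for deleted replicate 2 and 0.45 to 0.79 for the other arrays. That fit thus leans on 1 array of each group, and its counts cannot be read as firmer evidence. The titles number the replicates without stating a pairing. Arrays of the same number had weakly correlated deviations from their group means (0.077, 0.10 and −0.0074), and whether they were paired was not tested. With a replicate block 3 carriers passed, Slc1a1, Slc19a3 (limma adjusted p = 0.0296) and Slc23a1 (0.0312), while Slc1a5 did not (0.0508). Over all genes 113 passed with that block.

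Signs turned only in carriers that did not pass. Without _s_, _x_ and _a_ probe sets Slc26a3 stood at 0.061 and Slc4a4 at 0.18, while Slc7a7, Slc3a2 and Slc29a1 had no value, and after repeated quantile normalisation Slc40a1 at −0.040. With array weights Slc5a1, Slc2a2, Slc2a5 and Slc11a2 stood at −0.079, −0.14, −0.28 and −0.081. With the Gapdh covariate Slc2a2, Slc2a5, Slc6a19, Slc7a8, Slc7a9, Slc43a2, Slc4a4, Slc40a1 and Slc29a1 stood at −0.20, −0.15, −0.0078, 0.018, −0.034, 0.27, 0.15, −0.51 and 0.041. Without control replicates 1 and 2 Slc2a2, Slc2a5, Slc7a8, Slc7a9, Slc43a2, Slc4a4, Slc40a1 and Slc29a1 stood at −0.19, −0.18, 0.081, −0.0023, 0.33, 0.12, −0.62 and 0.018. With each array left out, the range was −0.0053 to 0.13 for Slc5a1, −0.082 to 0.32 for Slc2a2, −0.13 to 0.38 for Slc2a5, −0.31 to 0.036 for Slc43a2, −0.31 to 0.044 for Slc4a4, −0.066 to 0.079 for Slc11a2 and −0.19 to 0.32 for Slc40a1. The causes were not tested. The number of arrays limits the precision.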
